A study of Rattus norvegicus with 4 samples.

Results

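This account covers 45 genes for chromatin remodelers, their subunits and bromodomain proteins, out of 14410 genes listed in an RNA-seq series of the rat oligodendroglial line CG4. The rule that takes them uses gene names and covers the Chd, Smarc, Brd, Arid, Ino80 and Baz families together with Bptf and Pbrm1. All 45 passed the filter on low values, which left 14368 genes to be tested. The name rule also takes in 6 ARID proteins that bind DNA but are not part of a known nucleosome remodeler, so the set is wider than its title, and these 6 are described apart.

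Both groups were wild-type CG4 cells, a progenitor line, transduced with a retrovirus and sorted for GFP. The control group (ctrl) carried CAG-IRES-GFP and the other group (Phf8oe) CAG-Phf8-IRES-GFP, so that GFP was shared and Phf8 was the added gene. Cells were expanded and then kept under differentiating conditions for 3 days, and each group held 2 biological replicates. The labels do not say whether these came from separate transductions, so p-values measure the spread between these preparations, which may in part be technical.

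Chromatin remodelers use ATP to slide, evict or exchange nucleosomes, and fall into the CHD, SWI/SNF, ISWI and INO80 families. Bromodomains bind acetylated lysines, chiefly on histone tails, and occur both in remodeler subunits and in independent readers such as the BET proteins. In oligodendrocytes, Smarca4 (Brg1) and Chd7 are known cofactors of the lineage factors Olig2 and Sox10. Phf8 is a histone demethylase that binds trimethylated lysine 4 of histone H3 at promoters and removes methyl groups from other histone lysines.

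The deposited values are normalized counts, which sum to between 39945215 and 41149255 per library. From gaps and doublings among the low values, library depth was estimated at 28400000 reads (Phf8oe replicate 2) to 47800000 reads (ctrl replicate 1). Phf8 itself had normalized counts of 2026 and 2205 in ctrl and 5650 and 10796 in Phf8oe. It lay higher in both Phf8oe libraries but did not pass the test (log2 fold change 1.89, SE 0.35, limma adjusted p = 0.0631). All 11 markers of the oligodendrocyte lineage were analysed, none at 0, with summed values of 487619 to 492464 in ctrl and 680390 to 738518 in Phf8oe. The myelin genes Mbp, Mog and Mag rose (limma adjusted p from 0.00623 to 0.0442), while the progenitor receptor Pdgfra fell 1.81-fold (limma adjusted p = 0.00361). Nkx2-2 and Cspg4 also lay lower in both Phf8oe libraries without passing the test. Markers of other cells moved as well. The 5 of 6 astrocyte markers that were analysed summed to between 80336 and 82115 in ctrl and between 12545 and 21452 in Phf8oe, mostly from Gfap, which fell 5.48-fold (limma adjusted p = 0.022). The far less abundant Slc1a3 and Aldh1l1 rose, 1.47-fold and 3.67-fold (limma adjusted p = 0.0254 and 0.0251), and Slc1a2 and Gja1 lay lower in both Phf8oe libraries without passing. The 7 neuronal markers summed to between 17744 and 19934 in ctrl and between 14302 and 14461 in Phf8oe. The log2 fold change was negative in 6 of the 7, with a median of -1.03, while the abundant Map2 stood at 0.07. None of the 7 passed the test. For microglia 2 of 6 markers were analysed, with sums from 61 to 101 over all libraries. Of 6 fibroblast and endothelial markers 1 was analysed, Col1a1, at 437 and 454 in ctrl and 121 and 164 in Phf8oe. The part of these other genes in the results below was not tested.

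In Phf8oe, 4 of the 45 genes fell and none rose in limma, with p-values adjusted by Benjamini and Hochberg's method and a threshold of 0.05: Arid5a, Ino80d, Arid5b and Chd9. The other 41 did not pass the test. Over all genes tested, 4.65% fell and 2.99% rose by the same rule, or 7.64% in either direction, so the share of 8.89% called among the 45 lies near the background. In a bulk sample, less RNA per cell and fewer cells that express a gene cannot be told apart.

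The normalized counts of Arid5a were 1028 (ctrl replicate 1), 897 (ctrl replicate 2), 278 (Phf8oe replicate 1) and 435 (Phf8oe replicate 2). The groups did not overlap, although the Phf8oe libraries differed from each other by 1.56-fold. Arid5a is an ARID protein best known for binding and stabilizing messenger RNAs such as that of interleukin 6. It fell 2.76-fold, a log2 fold change of -1.46 with an SE of 0.22 over 2 libraries per group and a limma adjusted p of 0.012. The gene overlaps Kansl3 in the GRCr8 annotation, and since no source used here says whether counting used strand, reads of the overlap could belong to either gene. Kansl3 did not pass the test, with values of 3551 and 3295 in ctrl and 3077 and 2921 in Phf8oe.

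Arid5b, a partner of the demethylase Phf2 and thus of a relative of Phf8, stood at 725 and 722 in ctrl and at 369 and 398 in Phf8oe. Replicates lay close together in both groups and far from the other group. The log2 fold change was -0.92 (SE 0.14, limma adjusted p = 0.00849), or 1.89-fold lower. This was the smallest adjusted p among the 45 genes.

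Ino80d, a subunit of the INO80 complex that evicts and spaces nucleosomes, went from 271 and 294 to 145 and 112. Both Phf8oe libraries lay below both ctrl libraries. The fall was 2.21-fold (log2 fold change -1.14, SE 0.21, limma adjusted p = 0.0163). Chd9, a remodeler of the CHD6 to CHD9 subfamily, had 1857 and 1749 in ctrl and 1233 and 1161 in Phf8oe. Its replicates differed by at most 1.06-fold within either group, against a fall of 1.51-fold between groups (log2 fold change -0.59, SE 0.11, limma adjusted p = 0.0162).

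**Figure D1:**
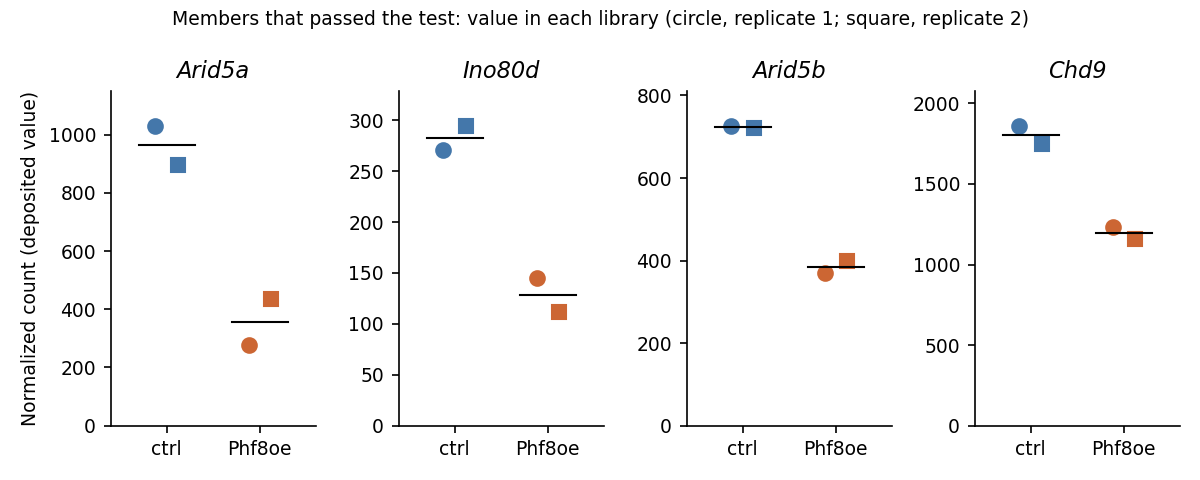
Normalized count (linear axis from 0) of the 4 genes that passed the test, in each of the 4 libraries; circles are replicate 1, squares replicate 2 and horizontal lines group means. In each panel both Phf8oe libraries lie below both ctrl libraries, with Arid5a at 278 and 435 against 1028 and 897.

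The 4 calls rested on both control libraries, and were lost when either was left out. Calls over all genes tested also moved widely with the library left out, as given in the last section, so this swing is not particular to the 45 genes. With 1 library left in a group, it is assumed to vary like the other group. The sizes of the falls moved less than the calls: with each library left out in turn, the log2 fold change ranged from -1.78 to -1.14 for Arid5a, from -0.97 to -0.86 for Arid5b, from -1.33 to -0.96 for Ino80d and from -0.63 to -0.55 for Chd9. With the replicate number as a block, 2 of the 4 passed, Arid5a and Arid5b.

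**Figure D2:**
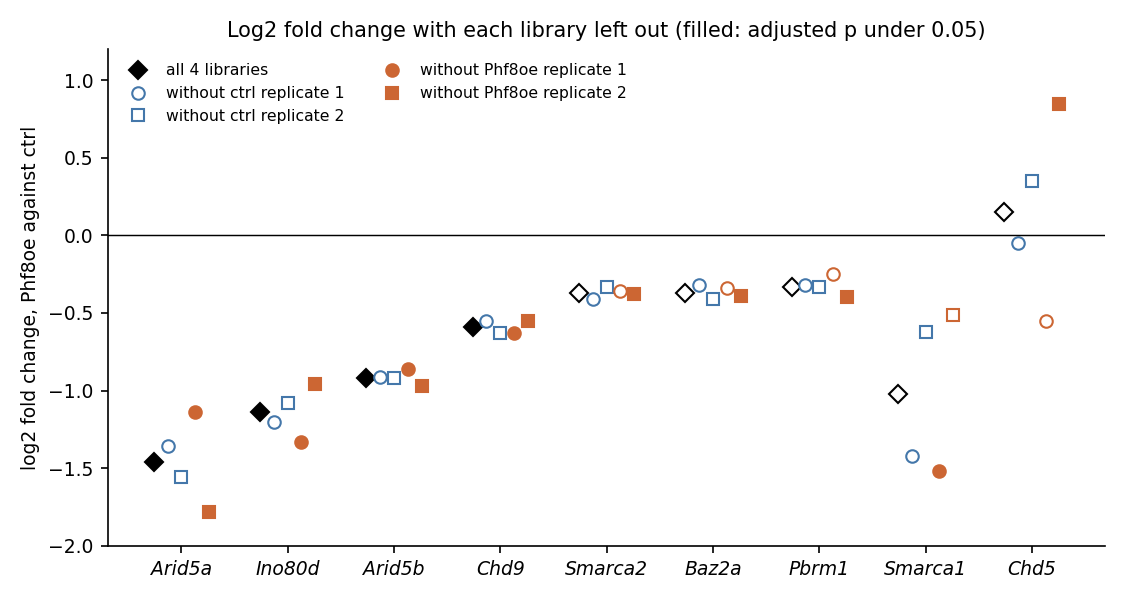
Log2 fold change (Phf8oe against ctrl) of the 4 genes that fell and of 5 genes that did not pass, with all 4 libraries (diamonds) and with each library left out (circles and squares); filled symbols have a limma adjusted p under 0.05. Arid5a, Ino80d, Arid5b and Chd9 stay below 0 throughout, while Chd5 runs from -0.55 to 0.85.

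Promoter sequence is shown for the 3 fallen genes that have only 1 annotated start, to let their composition be compared. Each run is the 250 bases before the RefSeq start in the GRCr8 assembly, read 5′ to 3′ on the strand of the gene, with CG dinucleotides in capitals. That assembly is not the build of the counts, and which start these cells used was not tested. Chd9 has 14 starts in the same table and is not shown.
Arid5a, chr9:46030329-46030578, plus strand: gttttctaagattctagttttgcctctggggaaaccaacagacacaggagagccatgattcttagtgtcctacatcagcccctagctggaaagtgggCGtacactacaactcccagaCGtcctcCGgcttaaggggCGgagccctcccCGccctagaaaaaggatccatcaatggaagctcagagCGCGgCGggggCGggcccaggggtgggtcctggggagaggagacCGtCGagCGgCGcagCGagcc
Arid5b, chr20:20306464-20306713, plus strand: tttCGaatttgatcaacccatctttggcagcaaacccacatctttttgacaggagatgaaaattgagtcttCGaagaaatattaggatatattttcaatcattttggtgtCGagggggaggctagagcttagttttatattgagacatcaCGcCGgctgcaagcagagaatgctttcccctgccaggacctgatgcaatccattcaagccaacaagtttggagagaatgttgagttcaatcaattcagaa
Ino80d, chr9:71988582-71988831, minus strand: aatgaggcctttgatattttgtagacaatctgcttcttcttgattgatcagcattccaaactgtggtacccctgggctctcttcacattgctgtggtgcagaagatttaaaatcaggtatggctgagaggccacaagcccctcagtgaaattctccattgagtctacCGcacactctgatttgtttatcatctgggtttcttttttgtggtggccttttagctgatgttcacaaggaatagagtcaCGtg

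The 3 windows differ in composition. That of Arid5a holds 14 CG dinucleotides and is 60.0% G and C, that of Arid5b holds 5 at 41.2%, and that of Ino80d holds 2 at 43.6%. Over 33469 RefSeq windows of this length the medians were 5 CG dinucleotides and 51.2% G and C. A search of both strands found the GC box GGGCGG at 3 places in Arid5a, a motif held by 30.5% of all windows. The E-box CACGTG was found once in Ino80d (5.59% of all windows). The letters TATAAA of the TATA box were found once in Arid5b (12.9%), only on the strand opposite to the one printed. The AP-1 site TGANTCA (6.34% of all windows), the CCAAT box (34.0%) and the cAMP response element TGACGTCA (1.59%) were found in none of the 3. No motif searched was shared by the 3 fallen genes.

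Although few genes passed, the 45 lay mostly on the lower side. The log2 fold change was negative in 32 and positive in 13, with a median of -0.15, whereas 49.6% of all genes tested were negative and their median was 0.0. Both Phf8oe libraries lay below both ctrl libraries in 28 of the 45 (62.2%) and above them in 2 (4.44%), against 28.7% and 28.9% of all genes tested. At an unadjusted limma p under 0.05, 14 of the 45 (31.1%) were lower and none higher, where 13.6% of all genes were lower and 12.7% higher. The differences were small for most genes: 13 of the 45 had a log2 fold change within 0.1 of 0. Relative to each gene's mean over the 4 libraries, the median log2 deviation of the 45 genes was 0.11 and 0.05 for ctrl and -0.08 and -0.1 for Phf8oe. Leaving out the 6 ARID DNA-binding proteins left the median of the remaining 39 at -0.15, with 26 negative. Of these 39, 2 passed the test, both lower (5.13%). Over all genes tested, 4.65% fell and 7.64% were called in either direction. Genes are not independent of each other, and these counts describe the set without a test.

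**Figure D3:**
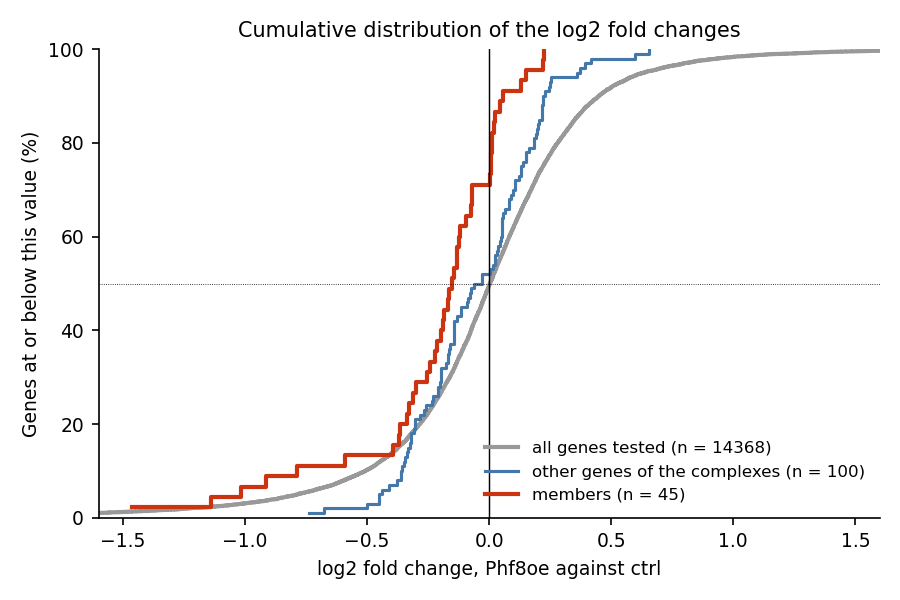
Cumulative share of genes (%) by log2 fold change of Phf8oe against ctrl, for the 45 genes (red) and all 14368 genes tested (grey). Blue marks 100 other remodeling, bromodomain and P-TEFb genes, labelled as other genes of the complexes. The red curve crosses 50% at -0.15, left of the grey curve at 0.0, and ends at 0.23.

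Among the 9 CHD remodelers, Chd9 fell and 8 did not pass the test, with a median log2 fold change of -0.21. Over all genes tested, 4.65% fell. Chd2, which is linked to the deposition of histone H3.3, stood next to Chd9, at 2978 and 2829 in ctrl and 2434 and 2164 in Phf8oe. The groups were apart, but its log2 fold change of -0.34 did not pass (limma adjusted p = 0.0841). Chd7, mutated in CHARGE syndrome and needed for timely myelination, had 4470 and 4677 against 3967 and 3755 (log2 fold change -0.24, limma adjusted p = 0.15). Its relative Chd8, an autism risk gene, had 7793 and 7396 against 6656 and 6373 (log2 fold change -0.22, limma adjusted p = 0.187). The values of Chd1, a reader of methylated lysine 4 of histone H3, were 2433 and 2319 against 2048 and 2052 (log2 fold change -0.21, limma adjusted p = 0.217). Chd1, Chd2, Chd4, Chd7 and Chd8 had both Phf8oe libraries below both ctrl libraries without passing the test. With Chd9 that is 66.7% of the class, against 28.7% of all genes tested.

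Chd3, Chd4 and Chd5 are the ATPases of the NuRD complex, which couples remodeling to histone deacetylation. Chd4 had the highest deposited value of the 45 genes in each library, 27827 and 25763 in ctrl and 24629 and 23792 in Phf8oe, values that are not corrected for transcript length. Chd3 was 1 of the 2 genes with both Phf8oe libraries above both ctrl libraries, at 12695 and 13086 against 12084 and 11501 (log2 fold change 0.13, 95% interval -0.09 to 0.35, limma adjusted p = 0.444). It overlaps Naa38 in the GRCr8 annotation. Chd5, otherwise typical of neurons, was low and uneven, with 97 and 128 in ctrl and 201 and 76 in Phf8oe. Its Phf8oe replicates differed by 2.64-fold, more than the groups, and its interval ran from -1.01 to 1.3. Chd6 had 5428 and 5648 in ctrl and 6098 and 5203 in Phf8oe, overlapping groups with a log2 fold change of 0.02.

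A SWI/SNF complex holds either Smarca4 (Brg1) or Smarca2 (Brm) as its catalytic subunit. Both had lower values in each Phf8oe library than in each ctrl library, as had 28.7% of all genes tested. Neither passed the test. Smarca2 had 3224 and 3392 in ctrl and 2541 and 2573 in Phf8oe, a log2 fold change of -0.37 (95% interval -0.59 to -0.15, limma adjusted p = 0.0525). It passed with total scaling, with crossed replicate pairs and without Phf8oe replicate 2. Smarca4 had 15093 and 15133 in ctrl and 14171 and 14595 in Phf8oe, with a log2 fold change of -0.07 and an interval from -0.29 to 0.15. That interval does not reach a 1.5-fold change in either direction, or 0.58 on the log2 scale.

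None of the 11 SWI/SNF subunits passed the test (median log2 fold change -0.13, from -0.33 to 0.04). In 5 of them (45.5%) both Phf8oe libraries lay below both ctrl libraries, against 28.7% of all genes tested, and in 6 the groups overlapped. Pbrm1, the subunit that defines the PBAF form of the complex, was the lowest, at 5447 and 5409 against 4112 and 4554 (limma adjusted p = 0.0783). It overlaps Gnl3 in the GRCr8 annotation. Arid1b stood at 2022 and 1934 against 1660 and 1658 (log2 fold change -0.25, limma adjusted p = 0.159), and its alternative in the canonical BAF complex, Arid1a, at 14421 and 13035 against 13590 and 11642 (log2 fold change -0.12). Arid1a thus overlapped between the groups, while Arid1b did not. The core scaffold genes Smarcc1 and Smarcc2 had log2 fold changes of -0.07 and -0.2. Smarce1, which carries an HMG box, had 6779 and 6626 in ctrl and 5799 and 5971 in Phf8oe. Among the alternative subunits Smarcd1, Smarcd2 and Smarcd3, log2 fold changes were 0.01, -0.13 and 0.04, each with overlapping groups. The bromodomain subunits Brd7 of PBAF and Brd9 of the noncanonical BAF complex stood at 0.01 and -0.16. In the GRCr8 annotation Brd9 overlaps Trip13 and Smarcd3 overlaps Chpf2.

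No gene of the 7 in the ISWI family and its partners passed (median log2 fold change -0.18). In 6 of the 7 (85.7%) both Phf8oe libraries lay below both ctrl libraries, against 28.7% of all genes tested. Smarca1 (Snf2l), the ATPase of the NURF complex, had 180 and 314 in ctrl and 167 and 82 in Phf8oe. Its replicates differed by 1.74-fold in ctrl and 2.04-fold in Phf8oe, as much as the groups, and its log2 fold change of -1.02 had an interval from -2.05 to 0.02 (limma adjusted p = 0.195). Bptf, the NURF subunit that reads methylated lysine 4 of histone H3, was steadier, at 5541 and 5393 in ctrl and 4498 and 4321 in Phf8oe, with a log2 fold change of -0.31 (limma adjusted p = 0.079). Smarca5 (Snf2h), the other ISWI ATPase, had a log2 fold change of -0.13.

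The Baz proteins pair with Smarca5 or Smarca1 and carry a bromodomain. Baz2a (Tip5), which silences ribosomal RNA genes, had 4371 and 4124 in ctrl and 3237 and 3349 in Phf8oe, a log2 fold change of -0.37 (limma adjusted p = 0.054). It passed in the same 3 alternatives as Smarca2, and overlaps Rbms2 in the GRCr8 annotation. Baz1b, the Williams syndrome transcription factor, had the highest values in this class, at 7558 and 7676 in ctrl and 6847 and 6702 in Phf8oe, a log2 fold change of -0.17. Baz2b stood at -0.18. Baz1a (Acf1) was the only gene of the class with overlapping groups, at 1738 and 1704 against 1621 and 1861.

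Of the 4 INO80 genes, Ino80d fell and the other 3 did not pass, where 4.65% of all genes tested fell. Both Phf8oe libraries lay below both ctrl libraries in 2 of the 4 and above them in 1, against 28.7% and 28.9% of all genes tested. The ATPase gene Ino80 had 1937 and 1755 in ctrl and 1534 and 1461 in Phf8oe, so the groups did not overlap (log2 fold change -0.3, limma adjusted p = 0.121). Ino80e lay the other way, at 1584 and 1611 in ctrl and 1925 and 1801 in Phf8oe, a log2 fold change of 0.22 (limma adjusted p = 0.218). It overlaps Doc2a in the GRCr8 annotation. Ino80c had 603 and 580 in ctrl and 595 and 804 in Phf8oe, so that 1 library set its log2 fold change of 0.23. The members of this complex therefore spread from -1.14 to 0.23.

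Of the genes taken by the name rule, the bromodomain readers Brd1, Brd3 and Brd8 lay near no change. Bromodomain proteins outside the rule, described below, had a median log2 fold change of -0.29. Brd3, of the BET family, had 3167 and 3258 in ctrl against 3226 and 3289 in Phf8oe (log2 fold change 0.02, 95% interval -0.2 to 0.24). Brd1, a scaffold of histone acetyltransferase complexes, and Brd8, of the TIP60 acetyltransferase complex, both stood at 0.01, with intervals from -0.21 to 0.23 and from -0.23 to 0.24. Their groups overlapped, and these intervals leave out changes of 1.5-fold. Smarcad1 and Smarcal1, SNF2 helicases that act in chromatin replication and at stalled forks, had log2 fold changes of -0.15 and 0.06 and did not pass.

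All 6 ARID DNA-binding genes had negative log2 fold changes, with a median of -0.59, and 2 of them, Arid5a and Arid5b, fell. Over all genes tested, 49.6% were negative and 4.65% fell. The class median draws on Arid4b, which stood at -0.79 with few counts (limma adjusted p = 0.285). Arid3a (Bright), a factor of immunoglobulin transcription, had 715 and 733 in ctrl and 559 and 541 in Phf8oe, values closely spaced within groups (log2 fold change -0.4, limma adjusted p = 0.0939). Arid4b was the least counted gene of the 45 in each library, with 32 and 25 against 11 and 23. Arid4a, like Arid4b a subunit of Sin3 deacetylase complexes, stood at 1129 and 1135 against 1098 and 1022 (log2 fold change -0.1). Arid3b had overlapping groups and a log2 fold change of -0.12.

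**Figure D4:**
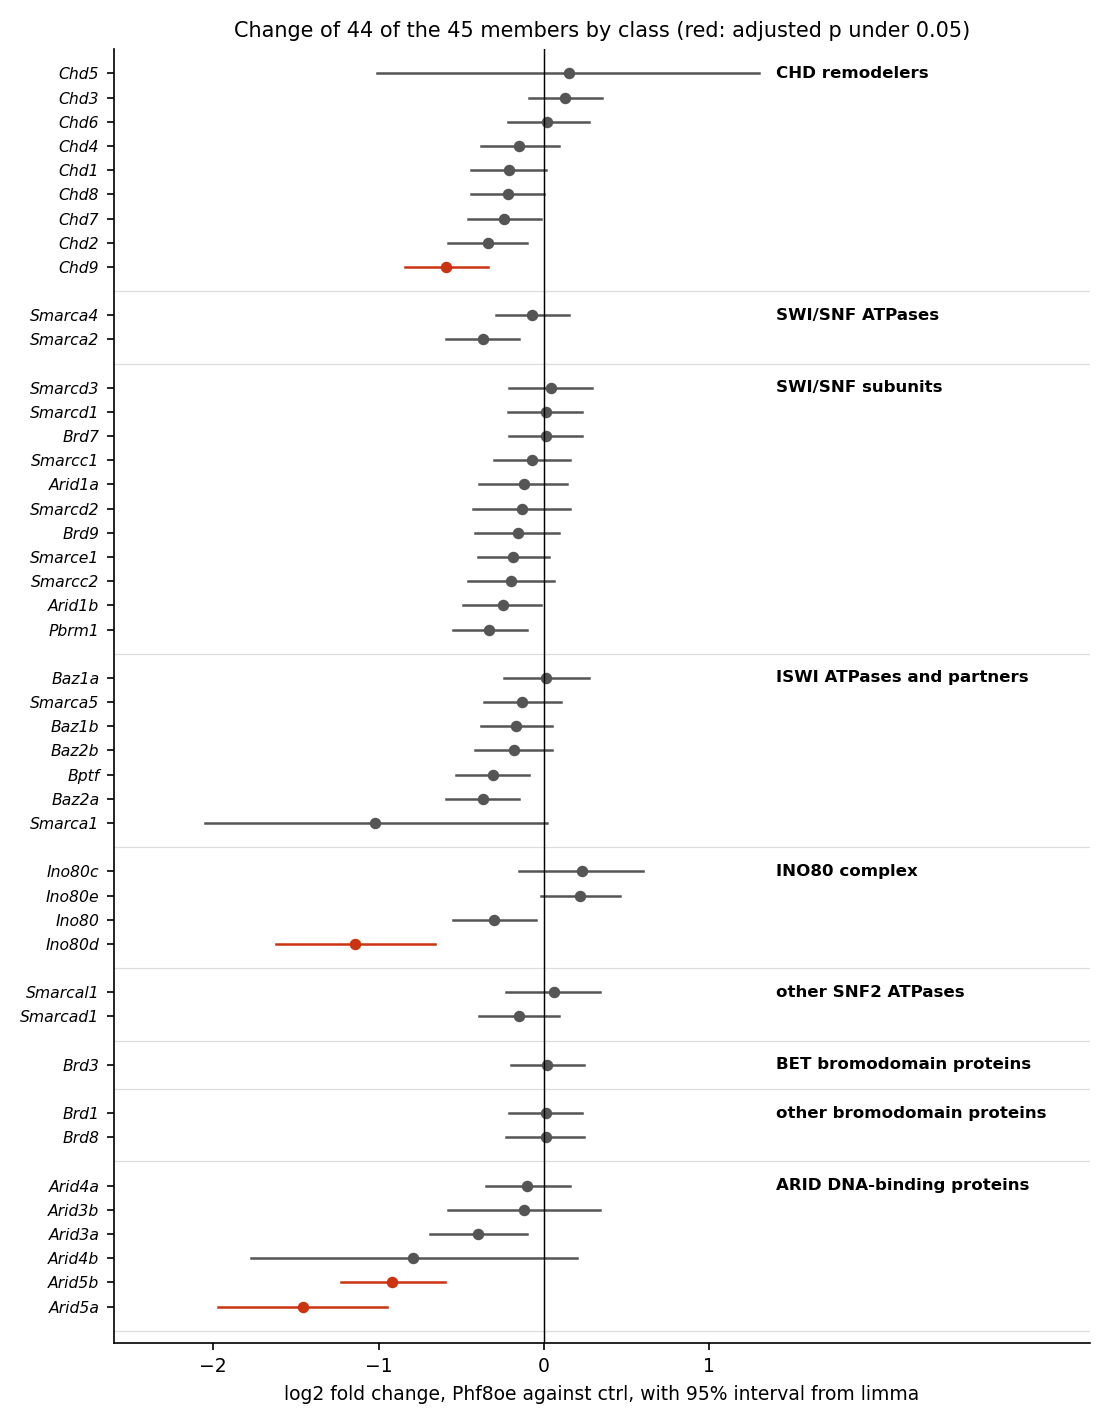
Log2 fold change of Phf8oe against ctrl for 44 of the 45 genes, in 9 classes, with 95% intervals from limma; red marks an adjusted p under 0.05. Chd9, Ino80d, Arid5b and Arid5a are red, intervals are widest for Chd5, Smarca1 and Arid4b, and Brd1, Brd3 and Brd8 sit within 0.1 of 0.

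Ratios of related genes within a library do not depend on how libraries were scaled, and gene length cancels when they are compared between libraries. Such pairs, 16 in all, were chosen after the values were seen. Both Phf8oe ratios lay above both ctrl ratios in 5 pairs and below them in 4, and 7 overlapped. Among all single genes tested, 28.9% lay above in this way and 28.7% below, and the share over other pairs was not computed. Smarca2 over Smarca4 was 0.214 and 0.224 in ctrl and 0.179 and 0.176 in Phf8oe. Chd3 over Chd4 was 0.434 and 0.446 in ctrl and 0.515 and 0.55 in Phf8oe, apart in the opposite direction. Chd9 over Chd6 was 0.342 and 0.31 in ctrl and 0.202 and 0.223 in Phf8oe. By contrast, Arid1b over Arid1a (0.14 and 0.148 against 0.122 and 0.142) and Chd7 over Chd8 (0.574 and 0.632 against 0.596 and 0.589) overlapped. With 2 libraries against 2, an exact permutation test of a ratio cannot go below p = 0.333, so none was run.

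Genes outside the name rule were taken from 6 lists. These hold other subunits of the same complexes, further SNF2 ATPases, other bromodomain proteins, and genes of P-TEFb and its release. Of 14 other SWI/SNF subunits none passed in limma, with 2 at an unadjusted p under 0.05, and their median log2 fold change was 0.06. Of these, Arid2, the ARID subunit of PBAF, stood at 4033 and 3979 against 3143 and 3342 (log2 fold change -0.31, limma adjusted p = 0.0863), and Dpf2 at -0.14. Of 19 other ISWI and NuRD subunits Rsf1, the partner of Smarca5 in the RSF complex, fell 1.42-fold, from 1815 and 1801 to 1300 and 1254 (limma adjusted p = 0.0261). The remaining 18 did not pass, and the median was 0.04. Of 24 other subunits of the INO80, SRCAP and TIP60 complexes none passed in limma, with 4 at an unadjusted p under 0.05 and a median of 0.03; Morf4l1 stood at -0.03 and Srcap at -0.12.

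Among 12 further SNF2 ATPases Hltf, a helicase of DNA damage tolerance, rose 1.51-fold, from 812 and 1054 to 1408 and 1389 (limma adjusted p = 0.0375), and 11 did not pass. Of 18 other bromodomain proteins 3 fell and none rose, 12 had a negative log2 fold change and the median was -0.29. At an unadjusted limma p under 0.05, 9 of the 18 were lower and 0 higher, against 13.6% and 12.7% of all genes tested. The 3 genes that fell were the histone methyltransferases Kmt2a (1.67-fold, limma adjusted p = 0.00897) and Ash1l (1.36-fold, limma adjusted p = 0.0336), and Brwd3 (1.37-fold, limma adjusted p = 0.0495). Of 13 genes of P-TEFb and its release none passed in limma, with 2 at an unadjusted p under 0.05, and the median was -0.12. Aff4, the scaffold of the super elongation complex, had 8499 and 8358 in ctrl and 6659 and 6516 in Phf8oe (limma adjusted p = 0.0546), and Cdk9, the kinase of P-TEFb, had a log2 fold change of -0.15. Over all 100 of these genes 4 fell and 1 rose, against 4.65% and 2.99% of all genes tested. In 52 the log2 fold change was negative, and the median was -0.05. Both Phf8oe libraries lay below both ctrl libraries for 42 of the 100 and above for 25, against 28.7% and 28.9% of all genes tested. At an unadjusted limma p under 0.05 there were 21 lower and 6 higher, against 13.6% and 12.7%. Whether these counts differ from those of the 45 genes was not tested.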

How the data were processed

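The 45 genes and all lists were chosen with earlier results of these data known. Per the submitters' processing notes, reads went through bcl2fastq 2.20, Trimmomatic 0.36 and STAR 2.5.2b, DESeq2 is also listed, and the rat builds are Rnor_6.0 and rn6. No source used here gives the counting program, annotation, strand setting or gene filter. The deposited signal holds gene-level normalized counts, scaled per library and rounded by the authors although labelled raw. This was read from the values: whole numbers that scaled reads would skip were absent (85 of 85 in Phf8oe replicate 2). A count model was therefore not used. The 4 sample files matched the series table.

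The test was limma 3.58.1 (R 4.3.3), run on log2(value + 1), which understates the change of low genes. A gene needed a value of 10 or more in 2 libraries. The group was the only term, with a variance trend and robust moderation (residual degrees of freedom 2, prior median 6.99). Tests were two-sided with Benjamini-Hochberg adjustment over all genes at 0.05. The procedure was run on simulated data with the same dispersion for every gene and changes larger than the falls of Arid5b and Chd9. That run therefore cannot show how well falls of their size are called. Named were Phf8, the genes past the threshold, and of each class those highest, lowest and most abundant, with up to 4 past the threshold or the 2 most abundant of each list; other genes named, and the 16 ratio pairs, were chosen after their values were seen. Alternatives covered scaling, filters, pseudocounts, variance moderation, limma-voom on estimated reads, replicate blocks and leaving out each library. A planned description by protein length was not run. The single values of 1 of the 45 genes are not reported here. Promoters came from RefSeq's GRCr8 table, which held 53 windows for 38 of the 45 genes. Tables and plots were made with matplotlib 3.10.9, pandas 2.3.3 and numpy 2.4.6 under Python 3.11.15.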

Additional observations from a re-analysis of the deposited data

How the results depend on the processing

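All 4 falls (Arid5a, Arid5b, Ino80d, Chd9) were called under each alternative of scaling, filter, pseudocount, robust moderation and limma-voom that was run, and total scaling called Smarca2 and Baz2a as well. Without a variance trend limma called 0 of the 45 genes (10 at an unadjusted p under 0.05) and 0 of all genes (3133 at that level). With the replicate number as a block, 2 of the 45 and 373 of all genes passed. Same-numbered libraries deviated weakly against each other (r = -0.126 across 14368 genes). With 2 replicates per group this cannot decide whether the numbers pair the samples, and the labels do not say. With crossed pairs, added after seeing the data, 10 of the 45 and 2354 of all genes passed. With each library left out in turn, the count among the 45 ranged from 0 to 8, that among all genes from 14 to 2103 (1098 with all libraries), and the median log2 fold change of the 45 from -0.2 to -0.11. Upper quartile scaling moved that median to -0.11, with that of all genes at 0.045, and the split of all calls from 430 higher and 668 lower to 614 higher and 598 lower. Genes near no change turned sign. With total scaling Brd1, Brd7, Brd8 and Smarcd1 stood at -0.01 and Baz1a at -0.0068. With libraries left out, log2 fold changes ran from -0.00029 to 0.04 for Brd3, -0.55 to 0.85 for Chd5, -0.09 to 0.14 for Chd6, -0.02 to 0.04 for Brd1, -0.09 to 0.11 for Baz1a, -0.02 to 0.03 for Brd8, -0.06 to 0.07 for Smarcd1, -0.03 to 0.12 for Smarcd3, -0.31 to 0.04 for Smarcd2 and -0.04 to 0.05 for Brd7. The cause of these changes was not tested. Adjusted p-values of the 4 genes with a library left out reached 0.235. Depth limits Arid4b most, at 11 to 32 normalized counts.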
